A study of Homo sapiens with 4 samples.

Results

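Selenoproteins carry the amino acid selenocysteine, which ribosomes insert at a UGA codon that would otherwise end translation. The genes described here were 10 selenoproteins fixed by name: the glutathione peroxidases GPX1, GPX2 and GPX4, the thioredoxin reductases TXNRD1 and TXNRD2, the endoplasmic reticulum (ER) proteins SELENOF, SELENOK, SELENOS and SELENOT, and the selenophosphate synthetase SEPHS2. Each was taken from the row that carries its symbol, and 9 of the 10 were found this way, each on 1 row, among 20323 rows in all. SEPHS2 was not analysed here, because no row carries that symbol and 169 rows carry none. All 9 genes passed the filter on low counts, as did 12560 rows of the series.

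The footprints came from HCT-8, a human colorectal adenocarcinoma cell line, in a form resistant to 5-fluorouracil (5-FU). One group received a negative control plasmid (NC) and the other a plasmid that overexpresses METTL14 (OE), with 2 libraries in each group. METTL14 is the RNA-binding subunit of the enzyme that places N6-methyladenosine on messages. Cells of both groups were resistant to 5-FU and were treated with cycloheximide at 100 ug/mL, which holds ribosomes on the message, before the unprotected RNA was digested. The design text describes independent experiments, and the labels do not say whether transfected cells were selected or which selenium supply the medium held. The comparison of OE with NC asks which messages gained or lost footprints when METTL14 was overexpressed.

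A UGA codon is read as selenocysteine when the message carries a SECIS element, a stem-loop in its 3' untranslated region. SECISBP2 binds that loop, and the dedicated elongation factor EEFSEC brings the selenocysteine tRNA to the ribosome. When selenium is short, selenoprotein messages are served unequally: GPX1 is known to be lost early, while GPX4 and TXNRD1 are kept. The residue sits in the active site of the peroxidases and reductases, which remove peroxides and keep thioredoxin reduced. The counts used here are sums per gene, so footprints before the UGA codon and after it were not separated. Without a library of total RNA, the amount of a message and its ribosome occupancy cannot be told apart. In these bulk samples, the same holds for fewer cells that translate a gene and fewer footprints per cell. Levels were compared between libraries and not between genes, since no transcript lengths were used.

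Library totals lay between 7742274 estimated counts in OE replicate 1 and 24392875 in OE replicate 2. METTL14 stood at 44.6 and 47.6 CPM (counts scaled to the size of the library) in NC, at 448 CPM in OE replicate 1 and at 91.2 CPM in OE replicate 2. Both OE libraries lay above NC, with a log2 fold change of 2.55 (SE 0.81) and an adjusted p of 0.734 from edgeR's quasi-likelihood test or 0.0495 by DESeq2; without OE replicate 1 the log2 fold change was 0.99. OE replicate 1 stood apart from the other libraries. Genes of high NC level lay lower there and genes of low NC level higher, with a median log2 difference from the NC mean between -1.08 in the highest of 10 equal bins of NC level and 1.17 in the lowest. In OE replicate 2 these medians lay between -0.09 and 0.07. Over 12560 genes, log2 differences between the NC replicates had a standard deviation of 0.46, and those between the OE replicates one of 1.30. The 9 epithelial markers of the labelled cell type summed to 21960 and 21330 CPM in NC, and 6278 (replicate 1) and 24780 CPM (replicate 2) in OE. Erythroid and endothelial markers summed to at most 0.904 and 0.410 CPM in any library. Leukocyte markers summed to 72.4 and 78.6 CPM in NC against 41.7 and 30.6 CPM in OE, most of it CD68 at 28.7 to 75.5 CPM, with PTPRC at no more than 1 count and CD3E at 0. Fibroblast markers summed to 9.84 and 10.3 CPM in NC against 6.66 and 2.98 CPM in OE. Both sums were lower in both OE libraries, like the selenoproteins and ER partners described as lower, and their part in those results was not tested. In edgeR's quasi-likelihood test (Benjamini-Hochberg adjusted), 0 of the 12560 genes passed an adjusted p of 0.05 (0% called), with 691 at an unadjusted p below 0.05 (5.5%). The DESeq2 Wald test passed 25 genes (0.199%) and edgeR's likelihood ratio test 29 (0.231%). limma voom, run throughout with quality weights for the libraries, passed 0, and none of the 9 selenoproteins passed in these tests. In limma voom, 629 genes had an unadjusted p below 0.05.

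Of the 9 selenoproteins, 5 lay lower in both OE libraries than in either NC library (GPX1, GPX2, SELENOF, SELENOK and SELENOS), against 20.4% of all genes. Another 2 lay higher in both (GPX4 and TXNRD2), against 19.9% of all genes. TXNRD1 and SELENOT overlapped between the groups. The median log2 fold change over the 9 was -0.39, beside 0.09 over all genes. By edgeR's quasi-likelihood test 0 of the 9 passed, and 0 had an unadjusted p below 0.05. Scaled by library totals alone, the split was 3 lower (GPX2, SELENOF and SELENOK) and 3 higher (GPX4, TXNRD1 and TXNRD2). That scaling moved the median of all genes up by 0.31 on the log2 scale, and under it 11.7% of all genes lay lower in both OE libraries and 30.2% higher.

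**Figure D1:**
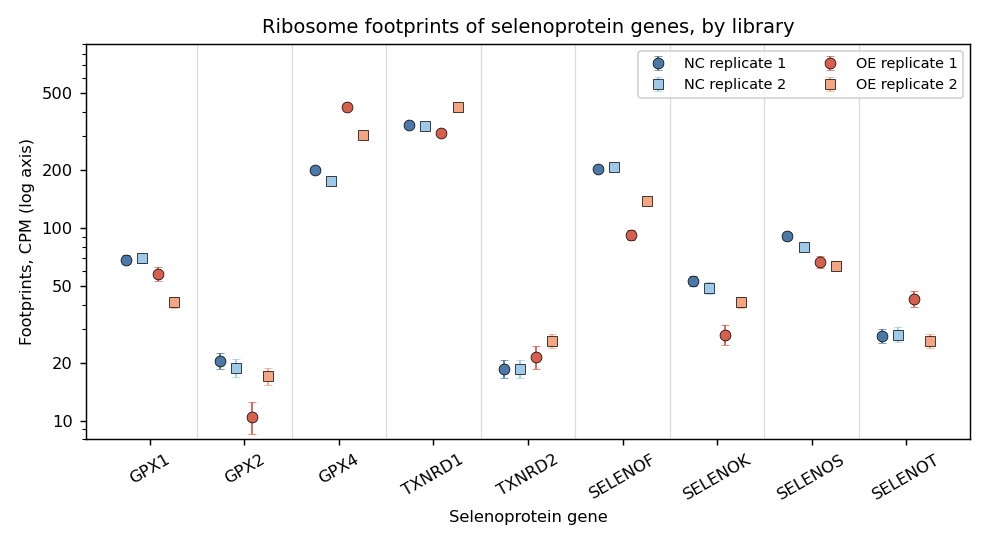
Footprint level of each selenoprotein gene in each library, in CPM on a log axis. Points are single libraries and bars are 95% intervals from counting error alone (exact Poisson). GPX4 lies higher in both OE libraries (425 and 302 CPM) than in NC (199 and 175 CPM), while SELENOF lies lower in both.

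GPX4 reduces lipid hydroperoxides within membranes and is the enzyme whose loss leads to ferroptosis, an iron-dependent form of cell death. Its footprints numbered 3871 and 2980 in NC and 4466 and 6670 in OE, or 199 and 175 CPM against 425 and 302 CPM. The groups did not overlap, and the lowest OE library stood above the highest NC library by more than the distance between the NC libraries and less than that between the OE libraries. The NC mean was 187 ± 17.4 CPM and the OE mean 363 ± 87.3 CPM (SD, n = 2 each), a ratio of 1.94. This gave a log2 fold change of 0.96 (SE 0.42) and an adjusted p of 0.734 from edgeR's quasi-likelihood test (Benjamini-Hochberg). GPX4 was thus the highest fold change among the 9 and did not pass the threshold.

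GPX1, the abundant peroxidase of the cytosol, had 1328 and 1186 footprints in NC and 605 and 912 in OE. Scaled to the library these were 68.4 and 69.5 CPM in NC, and 57.6 (replicate 1) and 41.2 CPM (replicate 2) in OE. The NC libraries were nearly level and both OE libraries lay below them, with a mean of 49.4 ± 11.6 CPM against 69.0 ± 0.801 CPM (SD, n = 2 each). The log2 fold change of GPX1 was -0.48 (SE 0.33; adjusted p = 0.734 by edgeR's quasi-likelihood test). GPX1 overlapped between the groups with library totals as the only scaling, at 60.8 and 63.4 CPM in NC against 78.3 and 37.4 CPM in OE.

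GPX2, the peroxidase typical of intestinal epithelium, had 396 and 320 footprints in NC and 109 and 375 in OE. Its levels were 20.4 and 18.8 CPM in NC, and 10.4 (replicate 1) and 16.96 CPM (replicate 2) in OE. Only OE replicate 1 lay clearly apart. The 95% counting interval of OE replicate 2, 15.3 to 18.8 CPM, overlapped that of NC replicate 2, 16.8 to 20.9 CPM. GPX2 had a log2 fold change of -0.51 (SE 0.37), at an adjusted p of 0.739 from edgeR's quasi-likelihood test.

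TXNRD1, the cytosolic reductase of thioredoxin, stood at 341 and 338 CPM in NC, and 309 (replicate 1) and 425 CPM (replicate 2) in OE, so the OE libraries lay on either side of NC. Its log2 fold change was 0.11 (SE 0.43; adjusted p = 0.946 by edgeR's quasi-likelihood test). It was the only one of the 9 with fractional counts, found in 3 libraries. TXNRD2, the mitochondrial reductase, had 18.6 CPM in each NC library and 21.3 and 25.9 CPM in OE. OE replicate 2 lay above the NC intervals, whereas the interval of OE replicate 1 (18.6 to 24.3 CPM) overlapped that of NC replicate 1 (16.7 to 20.6 CPM). The log2 fold change of TXNRD2 was 0.35 (SE 0.29; adjusted p = 0.760 by edgeR's quasi-likelihood test). In RefSeq (GRCh38.p14), TXNRD1 overlaps EID3 and the antisense gene TXNRD1-AS1, and GPX2 overlaps CHURC1-FNTB. The strand setting is not given in the sources used here, so reads of such overlapping genes cannot be told apart with certainty.

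GPX2 and TXNRD1 are known targets of the oxidative stress factor NRF2, so their promoters are shown at the antioxidant response element, the sequence to which NRF2 binds. RefSeq promoters of GRCh38.p14, from 250 bases before a start site to 50 after it, were searched on both strands for its core, TGAC and then GCA with any 3 bases between them. It matched in 3.18% of 35116 promoters, and in 3 of 16 promoters of the 10 selenoproteins, those of GPX2, TXNRD1 and SELENOK. The 30 bases around each match are given with the match in capitals, read along the strand of the gene.
GPX2, chr14:64942849-64942878, minus strand, match 114 to 123 bases before the start: gacctgttttTGCTAAGTCAtcctggggat
TXNRD1, chr12:104286919-104286948, plus strand, match 94 to 103 bases before the start: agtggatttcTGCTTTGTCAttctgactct
SELENOK, chr3:53891957-53891986, minus strand, match 108 to 117 bases before the start: gtcgcagatgTGACGATGCAaaaacgcccg
These 3 genes did not share a pattern in OE: GPX2 and SELENOK lay lower in both libraries and TXNRD1 overlapped with NC. The ER stress response element, through which ER stress factors act and which was searched as CCAAT and CCACG with any 9 bases between them, matched in 0 of the 16 promoters and in 0.0769% of all promoters. These matches are descriptions of the letters in the window.

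SELENOF binds the glycoprotein-folding sensor UGGT1 in the ER and is thought to act as an oxidoreductase there. It had 3911 and 3529 footprints in NC and 964 and 3045 in OE, or 201 and 207 CPM against 91.8 and 138 CPM. Both OE libraries lay well below NC and the groups did not overlap, at means of 204 ± 3.86 CPM and 115 ± 32.5 CPM (SD, n = 2 each), a ratio of 0.562. The log2 fold change was -0.83 (SE 0.39; adjusted p = 0.734 by edgeR's quasi-likelihood test), the lowest of the 9.

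SELENOK, a small ER membrane protein that works with the palmitoyltransferase ZDHHC6, had 53.2 and 48.8 CPM in NC, and 27.9 (replicate 1) and 41.2 CPM (replicate 2) in OE. OE replicate 1 was the lowest of the libraries, and OE replicate 2 lay between it and NC. SELENOK had a log2 fold change of -0.56 (SE 0.34; adjusted p = 0.734 by edgeR's quasi-likelihood test). SELENOS (VIMP), which links the ubiquitin-selective ATPase VCP to the Derlin channel in ER-associated degradation, had 91.0 and 79.9 CPM in NC against 66.7 and 63.6 CPM in OE. Its OE libraries were closer to each other than its NC libraries were, with SDs of 2.23 and 7.85 CPM (n = 2 each). The log2 fold change of SELENOS was -0.39 (SE 0.30; adjusted p = 0.745 by edgeR's quasi-likelihood test). Scaled by library totals alone, its OE libraries, at 90.7 and 57.7 CPM, lay on either side of NC. SELENOT, a thioredoxin-like ER membrane protein, was the ER member that did not lie lower in both, with 27.5 and 27.9 CPM in NC, and 42.8 (replicate 1) and 25.8 CPM (replicate 2) in OE. Its log2 fold change of 0.31 (SE 0.36) was -0.10 without OE replicate 1. RefSeq names 3 pseudogenes of SELENOK, 2 of SELENOT and 2 of GPX1, so these counts carry some uncertainty from near-identical copies.

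**Figure D2:**
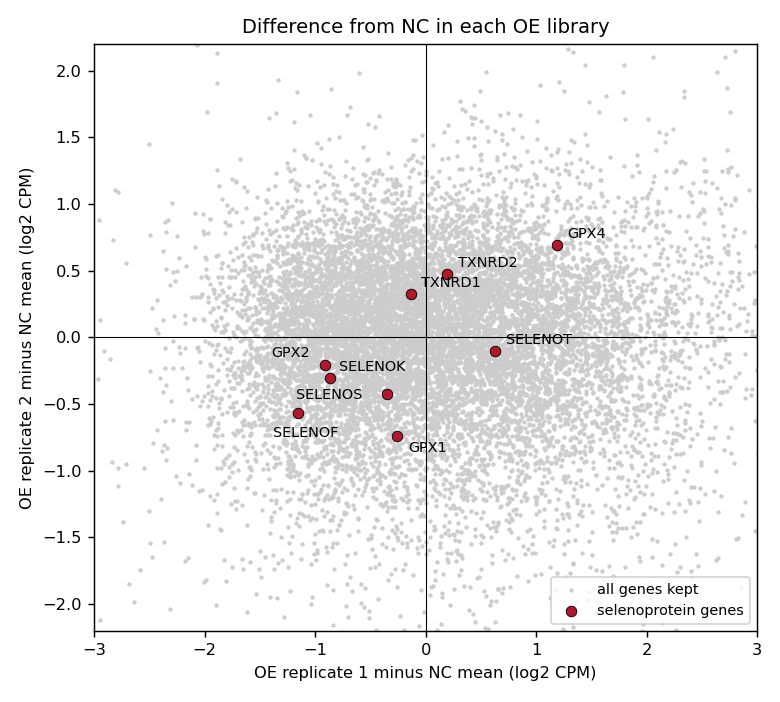
Log2 CPM of each gene in OE replicate 1 (horizontal axis) and OE replicate 2 (vertical axis), each minus the NC mean, with all genes kept in grey and the 9 selenoproteins in red. GPX4 and TXNRD2 lie in the upper right, 5 genes lie in the lower left, and TXNRD1 and SELENOT have opposite signs in the OE libraries; genes beyond the axis limits are not drawn.

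How far each selenoprotein stood from NC depended on the OE library. The difference of GPX4 from the NC mean was 1.19 for OE replicate 1 and 0.69 for replicate 2, on the log2 scale. That of SELENOF was -1.15 and -0.57, of SELENOK -0.87 and -0.30, and of GPX2 -0.91 and -0.20. GPX1 went the other way in size, at -0.26 in OE replicate 1 and -0.74 in OE replicate 2, while SELENOS was even at -0.35 and -0.42. When 1 library was left out, both fits that kept a single OE library rested on the spread of the NC pair and passed a large part of all genes. Without OE replicate 1, 5 of the 9 passed (GPX1, GPX4, TXNRD2, SELENOF and SELENOS), in a fit that passed 34.1% of all genes. Without OE replicate 2, 6 of the 9 passed (GPX2, GPX4, SELENOF, SELENOK, SELENOS and SELENOT), in a fit that passed 60.9% of all genes. GPX4 had log2 fold changes of 0.69 and 1.14 in these fits, with adjusted p of 0.000111 and 2.11e-08 by edgeR's quasi-likelihood test. SELENOF had -0.57 and -1.19, with adjusted p of 0.00219 and 5.36e-08 in the same test. Without NC replicate 1, or without NC replicate 2, 0 of the 9 passed.

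The level of a gene moved with its difference from NC in OE replicate 1, so each selenoprotein was set beside the 1256 genes of like NC level, in 10 bins of equal size. GPX4, TXNRD1 and SELENOF were in the highest bin, of at least 166.5 CPM in NC, where the median difference was -1.08 for OE replicate 1 and -0.08 for replicate 2. SELENOF, at -1.15, lay near that median in OE replicate 1, where 44.7% of the bin stood lower, and in OE replicate 2 22.0% stood lower. GPX4 lay far above it: 99.4% of the 1256 genes of this bin stood lower in OE replicate 1 and 91.7% in OE replicate 2. In the highest bin, 1.51% of genes lay higher in both OE libraries, as GPX4 did, and 45% lay lower in both, as SELENOF did. TXNRD1, at -0.14 and 0.32, stood above 90.4% and 75.3% of the same bin. The part of this level dependence in the differences of the selenoproteins was not tested.

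For the genes of lower level the picture differed by library. The share of a bin that lay lower in both OE libraries was 12.3% for that of GPX2 and TXNRD2, 26.4% for that of GPX1 and SELENOK and 34.6% for that of SELENOS, and 28.1% of the bin of TXNRD2 lay higher in both. GPX1 and SELENOK shared the eighth bin, where the median was -0.34 for OE replicate 1 and 0.01 for replicate 2. GPX1 lay close to this median in OE replicate 1 and low in OE replicate 2, where 10.2% of the bin stood lower. SELENOK had 22.2% of the bin below it in OE replicate 1 and 28.9% in OE replicate 2. GPX2 and TXNRD2 shared the fifth bin, whose median was 0.29 for OE replicate 1 and 0.07 for replicate 2. In OE replicate 1 GPX2 was low for its bin, with 6.93% of genes below it, and TXNRD2 was near the middle with 45.9% below it. SELENOS, in the ninth bin, had 66.2% of genes below it in OE replicate 1 and 26.0% in OE replicate 2.

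**Figure D3:**
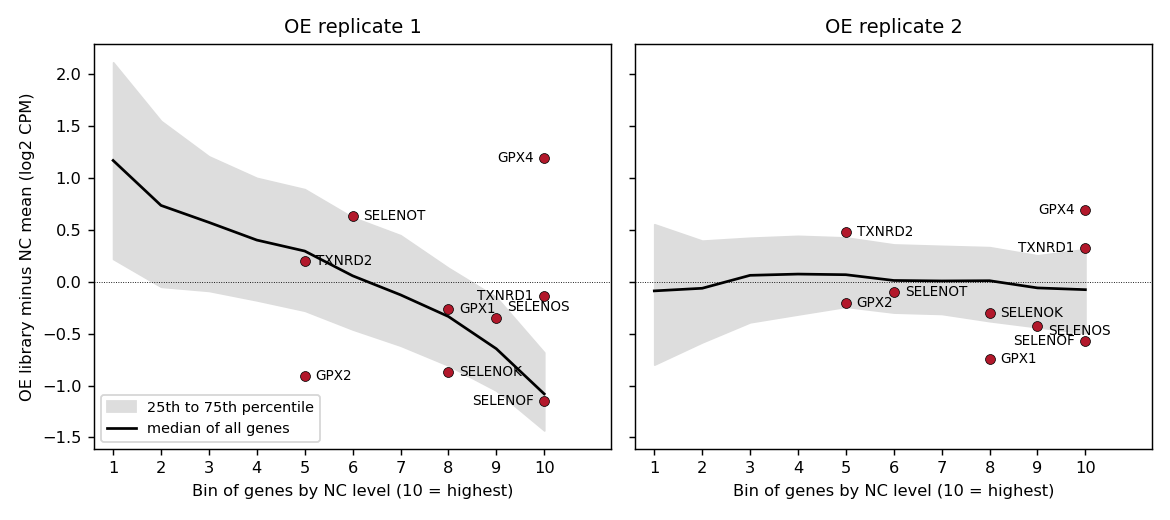
Difference of each OE library from the NC mean (log2 CPM) by bin of NC level, with the median of all genes as a line, the 25th to 75th percentiles in grey and the 9 selenoproteins in red. In OE replicate 1 the median runs from 1.17 to -1.08 across the bins and GPX4 (1.19) lies far above it, while SELENOF (-1.15) lies near it.

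Ratios within a library do not depend on the scaling between libraries. They can still differ with the level dependence of OE replicate 1, whose median difference from NC was 0.29 in the fifth bin and -1.08 in the highest. GPX4, TXNRD1 and SELENOF shared the highest bin, and the other genes lay in lower ones. The part of this in the ratios was not tested. GPX4 over GPX1 was 2.92 and 2.51 in NC and 7.38 and 7.31 in OE, so the OE libraries were nearly level with each other and both above NC. GPX4 over SELENOF was 0.990 and 0.844 in NC and 4.63 and 2.19 in OE. TXNRD1 over SELENOF was 1.70 and 1.63 in NC and 3.37 and 3.09 in OE. SELENOF over SELENOK, both ER proteins, differed less, at 3.79 and 4.24 in NC and 3.29 and 3.34 in OE. The ratio of TXNRD1 to TXNRD2 was 18.4 and 18.2 in NC and 14.5 and 16.4 in OE. These pairs were chosen after their values were seen, and with 2 libraries against 2 the smallest two-sided p that an exact permutation test can give is 0.333.

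Of the 36 pairs among the 9 genes, the within-library ratio did not overlap between the groups in 27, beside 40.2% of all pairs of genes. Those pairs were not matched for NC level. GPX4 was higher in both OE libraries relative to each of the other 8, beside 67.4% of the 12559 other genes of the series. SELENOF was lower in both relative to 65.7% of other genes, SELENOK to 48.3% and GPX1 to 46.1%. The pairs share genes and libraries and are not independent.

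**Figure D4:**
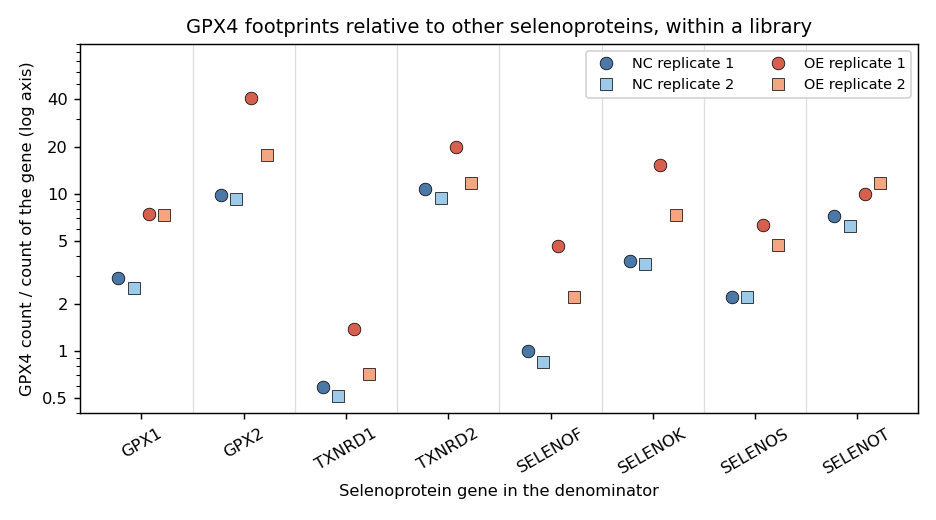
Count of GPX4 divided by the count of each other selenoprotein in the same library, on a log axis, with circles for replicate 1 and squares for replicate 2. Both OE points lie above both NC points for each of the 8 genes, and over GPX1 they nearly coincide at 7.38 and 7.31.

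The 9 genes together held a similar level in the libraries, at 1021 and 983 CPM in NC against 1053 and 1079 CPM in OE, but the makeup of that sum differed. GPX4 gave 19.5% and 17.8% of the selenoprotein footprints in NC, 40.4% in OE replicate 1 (exact Clopper-Pearson 95% interval 39.5% to 41.3%) and 28.0% in OE replicate 2 (27.4% to 28.5%). These shares are of counts, not corrected for length. SELENOF gave 19.7% and 21.0% in NC and 8.72% and 12.8% in OE. The shares of GPX1 were 6.70% and 7.07% in NC and 5.47% and 3.82% in OE. TXNRD1 held 33.4% and 34.4% in NC, and 29.4% (replicate 1) and 39.4% (replicate 2) in OE. The intervals cover counting error only, and reads amplified by PCR without molecular identifiers are not independent molecules. Scaled by library totals alone, the sum was 908 and 897 CPM in NC, and 1431 (replicate 1) and 979 CPM (replicate 2) in OE.

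Other selenoproteins were looked at from a list of 15, of which 7 had a row under their symbol and 3 passed the filter. Because 169 rows carry no symbol, a listed gene that was not found is not shown to be absent. By edgeR's quasi-likelihood test 0 of the 3 passed, and 0 had an unadjusted p below 0.05. GPX3, the secreted peroxidase of plasma, lay lower in both OE libraries, as did 20.4% of all genes and 34.6% of its bin of NC level. It had 135 and 116 CPM in NC against 89.4 and 98.6 CPM in OE, with a log2 fold change of -0.42 (SE 0.32). With library totals as the only scaling, 0 of the 3 tested lay lower in both, and the log2 fold change of GPX3 was -0.10. SELENOI, an enzyme of phosphatidylethanolamine synthesis, had 109 and 125 CPM in NC, and 50.1 (replicate 1) and 130 CPM (replicate 2) in OE. MSRB1, which repairs oxidised methionine, had 61.1 and 50.5 CPM in NC, and 25.2 (replicate 1) and 89.7 CPM (replicate 2) in OE. Both were low in OE replicate 1 and at or above NC in OE replicate 2. The 4 that did not pass the filter had at most 17.5 counts in any library. Paralogues that lack selenocysteine overlapped between the groups in 3 of 3 tested: GPX8, MSRB2 and SEPHS1 had log2 fold changes of 0.14, 0.04 and 0.08. Scaled by library totals alone, these 3 lay higher in both OE libraries, as did 30.2% of all genes, whose median log2 fold change was then 0.40.

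The machinery that inserts selenocysteine was tested in 13 of 13 listed genes, of which 2 lay higher in both OE libraries, 1 lay lower and 10 overlapped, beside 19.9% higher, 20.4% lower and 59.7% overlapping among all genes. Scaled by library totals alone, 5 of the 13 lay higher and 0 lower, beside 30.2% and 11.7% of all genes. SECISBP2, the SECIS-binding protein, had 6.13 and 5.80 CPM in NC, and 28.3 (replicate 1) and 6.96 CPM (replicate 2) in OE. Its height in OE thus came mainly from OE replicate 1, and its log2 fold change of 1.55 (SE 0.71) was 0.22 without that library. Its paralogue SECISBP2L had 11.2 and 13.95 CPM in NC against 17.1 and 14.9 CPM in OE. SARS1, which charges the selenocysteine tRNA with serine, lay lower in both, at 172 and 161 CPM in NC against 143 and 128 CPM in OE. Its log2 fold change of -0.30 was 0.05 when libraries were scaled by their totals alone.

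The next steps of the pathway were uneven in OE. PSTK, which phosphorylates the serine on the tRNA, had 9.58 and 8.21 CPM in NC, and 3.71 (replicate 1) and 8.64 CPM (replicate 2) in OE. SEPSECS, which turns the phosphoserine into selenocysteine, was the reverse, at 11.2 and 9.85 CPM in NC, and 18.2 (replicate 1) and 8.18 CPM (replicate 2) in OE. EEFSEC had 14.2 and 13.1 CPM in NC, and 7.33 (replicate 1) and 21.3 CPM (replicate 2) in OE. TRNAU1AP, which associates with the tRNA, and SEPHS1 stood at 0.03 (SE 0.32) and 0.08 (SE 0.34) in log2 fold change, with the OE libraries on either side of NC. TRNAU1AP had 33.5 and 29.0 CPM in NC against 26.6 and 37.4 CPM in OE, and SEPHS1 had 79.4 and 70.8 CPM against 66.1 and 92.4 CPM. SCLY, which releases selenium from selenocysteine, had a log2 fold change of 0.44 (SE 0.40), whereas LRP8, a receptor for selenoprotein P, had 77.6 and 86.1 CPM in NC, and 246 (replicate 1) and 68.4 CPM (replicate 2) in OE. EIF4A3, RPL30 and NCL, which bind SECIS elements, had log2 fold changes of -0.16, 0.32 and -0.50. In each of these 3 the OE libraries differed more than 2-fold from each other, with EIF4A3 at 99.5 and 420.0 CPM. In edgeR's quasi-likelihood test (Benjamini-Hochberg adjusted), 0 of the 13 passed, and 0 had an unadjusted p below 0.05.

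The proteins that work with the ER selenoproteins lay mostly lower, in 7 of 8 listed genes in both OE libraries, beside 20.4% of all genes. In the bins of NC level that hold these 7, between 21.7% and 45% of genes lay lower in both. DERL2, named after its values were seen, counts among the 7 by a narrow margin. It had 44.8 CPM in OE replicate 2 against 44.9 CPM in NC replicate 2, with overlapping counting intervals. UGGT1, the folding sensor bound by SELENOF, had 360 and 399 CPM in NC against 188 and 123 CPM in OE, for a log2 fold change of -1.29 (SE 0.43). VCP had -1.17 (SE 0.59), which was -0.65 when OE replicate 1 was left out and -2.01 when replicate 2 was. DERL1, a Derlin, had -0.92 (SE 0.43), which was -0.51 and -1.54 in the same fits. SYVN1 and SEL1L, the ubiquitin ligase of ER-associated degradation and its scaffold, had -0.96 (SE 0.33) and -0.95 (SE 0.33). ZDHHC6, the partner of SELENOK, was the exception, with 17.7 and 15.1 CPM in NC, and 36.8 (replicate 1) and 15.8 CPM (replicate 2) in OE; it was named after its values were seen. The median log2 fold change of the list was -0.93. When only their totals were used to scale the libraries, 6 of the 8 lay lower in both, beside 11.7% of all genes. In edgeR's quasi-likelihood test (Benjamini-Hochberg adjusted), 0 passed, with 3 at an unadjusted p below 0.05, beside 5.5% of all genes.

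A list of 16 genes held substrates and partners of the reductases and peroxidases, with CAT, SOD1 and SOD2 beside them. Of the 16, 13 overlapped between the groups, beside 59.7% of all genes. By edgeR's quasi-likelihood test 0 of the 16 passed, with 1 at an unadjusted p below 0.05, beside 5.5% of all genes. Their median difference from NC was -0.90 for OE replicate 1 and 0.49 for replicate 2. PRDX4 and SOD1, which remove hydrogen peroxide in the ER and superoxide in the cytosol, stood at -0.47 (SE 0.53) and -0.67 (SE 0.68) in log2 fold change. Both were low mainly in OE replicate 1: SOD1 had 1063 and 908 CPM in NC, and 319 (replicate 1) and 918 CPM (replicate 2) in OE, and its log2 fold change was -0.10 when OE replicate 1 was left out and -1.67 when replicate 2 was. PRDX4 had 237 and 218 CPM in NC, and 95.8 (replicate 1) and 232 CPM (replicate 2) in OE. Glutaredoxin GLRX lay lower in both OE libraries, at 50.9 and 40.5 CPM in NC against 25.4 and 24.0 CPM in OE, with a log2 fold change of -0.89 (SE 0.30; unadjusted p = 0.0309, adjusted p = 0.734 by edgeR's quasi-likelihood test). Mitochondrial GLRX2 lay higher in both with 0.48 (SE 0.35), mainly through OE replicate 2; without that library the value was 0.11, and without OE replicate 1 it was 0.74. Higher in both, too, was glutathione reductase GSR with 0.26 (SE 0.40), which was named after its values were seen. GSR had 237.8 and 228.2 CPM in NC, and 238.4 (replicate 1) and 321.5 CPM (replicate 2) in OE. OE replicate 1 was thus level with NC replicate 1, and without OE replicate 2 the log2 fold change was -0.0072. TXNIP, which binds and inhibits thioredoxin, had 1.39 and 1.17 CPM in NC, and 5.997 (replicate 1) and 1.13 CPM (replicate 2) in OE.

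**Figure D5:**
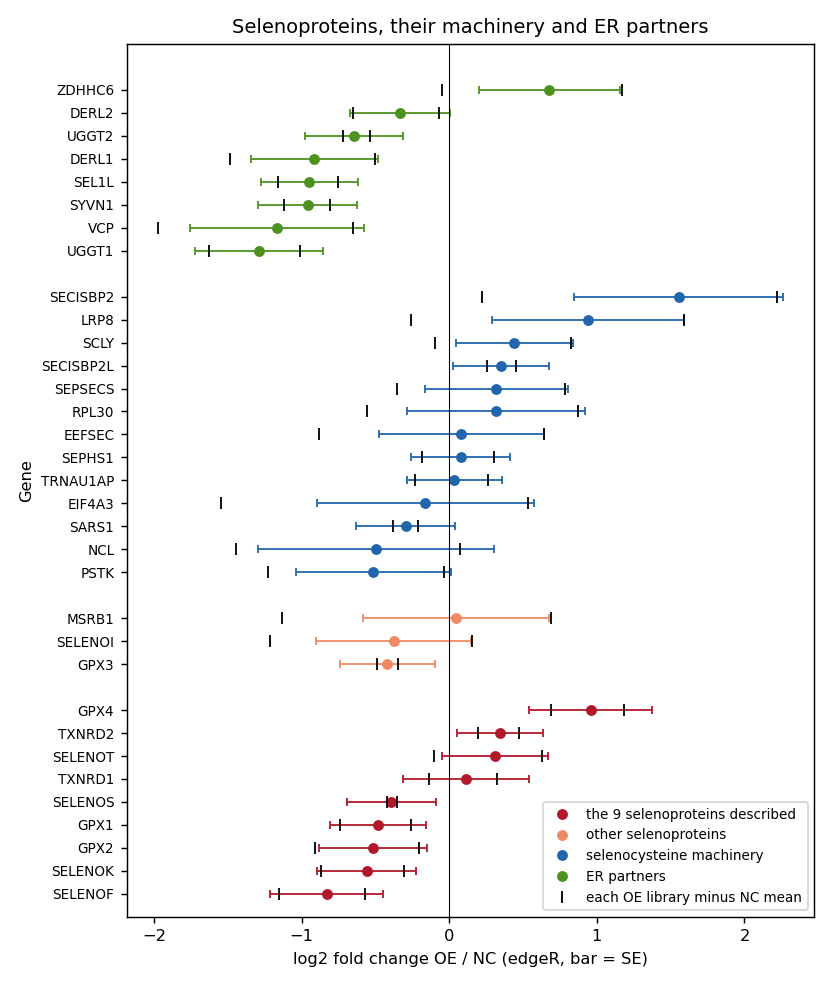
Log2 fold changes of OE over NC with SE for the 9 selenoproteins, the other selenoproteins tested, the selenocysteine machinery and the ER partners, with ticks for each OE library minus the NC mean. The ER partners lie left of 0 except ZDHHC6, and the ticks of the machinery genes are often on both sides of 0, as for EEFSEC at 7.33 and 21.3 CPM in OE.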

How the data were processed

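Each library's file, as deposited, holds estimated counts for Ensembl genes, per the file headers, of which 13.8% to 14.7% have a fraction. The submitters' processing notes list RSEM, StringTie, HISAT2, Bowtie2 and fastp, with hg18 as build. Their versions, the strand setting and the annotation were not given in the sources used here. Counts were rounded to whole numbers and analysed with DESeq2 1.42.0, limma 3.58.1 and edgeR 4.0.16 under R 4.3.3. Groups and replicate numbers came from the sample titles. filterByExpr chose the genes to test (count of at least 10, total of at least 15, proportion 0.7), which were scaled by TMM (factors 0.889, 0.912, 1.36 and 0.907). The test of OE against NC was the quasi-likelihood test of edgeR on group alone, with p-values adjusted over every gene tested (Benjamini-Hochberg) and called at 0.05. The SE is the log2 fold change divided by the square root of its F statistic. Differences of single libraries use log2 CPM with a prior count of 2. The value of 3 counts, the limit that a count of 0 allows, was 0.136 to 0.286 CPM. Replicate counts differed by a chi-square per degree of freedom of 11.5 in NC and 293 in OE, more than sampling noise. Scripts were tested on simulated counts with 200 genes changed by a known fold. Each gene had 1 spread, estimated over these libraries and shared by NC and OE. The larger spread of OE and the level dependence of OE replicate 1 were thus not simulated. The quasi-likelihood test called 0 of the 200 at 4-fold. At 16-fold it called 198 of them and 12 unchanged genes. A gene that did not pass is therefore not shown to be unchanged. The genes, the lists and the naming rule were chosen with earlier results of these data known: of each list up to 5 genes of smallest p were named, and of the selenocysteine machinery all. Promoter sequences are RefSeq's, GRCh38.p14, matched by symbol for 10 of 10 genes. RefSeq's gene table served for overlapping genes and pseudogenes. The p-values set the difference between the groups against the spread between these libraries, which was larger in OE than in NC.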

Additional observations from a re-analysis of the deposited data

How the results depend on the processing

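Over all 4 libraries, 0 of the 9 selenoproteins passed under any test, scaling, filter or block tried, and each kept the sign of its fold change. GPX4 stayed between 0.92 and 1.34 and SELENOF between -0.92 and -0.56. Genes passing the threshold over the whole series numbered 0 in edgeR's quasi-likelihood test, 25 by DESeq2, 29 by edgeR's likelihood ratio test and 24 with the replicate block. The replicate numbers were not taken as pairs: with 2 pairs, the differences between replicates of NC and OE had a correlation of -0.097 over genes, and the block changed the call of none of the 9. With library totals as the only scaling, 3 selenoproteins lay lower in both OE libraries, their median was -0.05, and SARS1 turned to 0.052. MSRB1 turned to -0.30 with limma voom and -0.22 with the replicate block, EEFSEC to -0.047 and -0.11, and RPL30 to -0.015 with limma voom. METTL14 had an adjusted p of 0.0495 by the DESeq2 Wald test, the only call of that gene over all 4 libraries.

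Leaving out each library in turn gave 7 to 7969 genes past the threshold, 0 to 6 of the selenoproteins, and a median over the 9 between -0.51 and -0.21. Log2 fold changes that took both signs in these fits ranged from -0.18 to 0.33 for TXNRD1, -0.10 to 0.59 for SELENOT, -1.26 to 0.15 for SELENOI, -1.19 to 0.69 for MSRB1, -0.26 to 1.55 for LRP8, -0.14 to 0.83 for SCLY, -0.93 to 0.65 for EEFSEC, -0.36 to 0.75 for SEPSECS, -0.23 to 0.30 for SEPHS1, -0.28 to 0.26 for TRNAU1AP, -0.61 to 0.86 for RPL30, -1.59 to 0.53 for EIF4A3, -1.45 to 0.032 for NCL, -0.024 to 0.26 for GPX8, -0.053 to 0.096 for MSRB2, -0.18 to 2.18 for TXNIP, -1.29 to 0.029 for PRDX4, -0.0072 to 0.47 for GSR and -0.054 to 1.13 for ZDHHC6. Where an arm held 1 library, its spread was assumed to be that of the other group. The cause was not tested. The counting interval of 1 OE library overlapped that of an NC library for GPX2 and SELENOT (OE replicate 2) and for TXNRD2 (OE replicate 1). The part of depth in this was not tested.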
